A study of Bos taurus with 14 samples.

Results

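The miR-29 family was followed as 5 mature miRNAs, bta-miR-29a, bta-miR-29b, bta-miR-29c, bta-miR-29d-3p and bta-miR-29e, which were taken by their mature names from the small RNA counts of bovine peripheral white blood cells (PWBC). All 5 were among the 1030 mature miRNAs listed. Of these, 4 had at least 1 CPM (the count scaled to its library's total) in at least 7 of the 14 heifers and were tested together with the other miRNAs that passed, 341 in all, whereas bta-miR-29e did not pass. bta-miR-29d-5p, the opposite arm of the 29d hairpin, is not a member and is described beside bta-miR-29d-3p.

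PWBC were collected from Angus-Simmental crossbred heifers at weaning, before any breeding, with 1 library per heifer. The fertile group (FH, n = 7) later became pregnant to artificial insemination (AI), and the subfertile group (SFH, n = 7) did not, nor to the bulls used after it. Both groups were selected with comparable age and weight and later underwent the same estrus synchronization and AI protocol, and neither carries a transgene or a treatment that the other lacks. The outcome of a single breeding season defines each group, so FH and SFH stand for later pregnancy and not for a known defect. Libraries of FH heifers held 1754971 to 5468341 mature miRNA counts, with a median of 3319368, and those of SFH heifers 1831960 to 3958469, with a median of 2663375. Exact permutation of the group labels gave a two-sided p of 0.315 for the difference in total. A count of 0 allows up to 3 counts, or 0.549 to 1.71 CPM depending on the heifer, which covers counting error only. PWBC are a mixture of lymphocytes, monocytes and granulocytes, and a smaller share of a cell type cannot be told apart from less of a miRNA per cell. Each heifer is a separate animal, and the labels give no preparation batch.

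The miR-29 miRNAs share a seed, the short 5′ stretch that pairs with target mRNAs, and so are predicted to bind largely the same targets. They are best known for repressing collagens and other extracellular matrix genes, the DNA methyltransferases of the DNMT3 type and the survival factor MCL1. In T lymphocytes miR-29 is known to restrain interferon gamma and the transcription factors that drive its production. The members are made from hairpins in several gene clusters, so that levels of paralogues can differ although their targets overlap.

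By RefSeq gene order on ARS-UCD2.0, a later assembly than the one used for counting, the hairpin genes fall into 3 neighbouring pairs. *MIR29A* lies next to *MIR29B-1* within the uncharacterized gene *LOC107131356*. *MIR29B-2* lies next to *MIR29C*, between *CD34* and *CD46*. *MIR29E* and *MIR29D* lie next to each other within *LOC518224*, on the other side of *CD46*. bta-miR-29b is made by hairpins of 2 pairs, and it has 2 entries in the count table that hold the same count in every heifer. bta-miR-29d-5p also has 2 identical entries, while bta-miR-29a, bta-miR-29c, bta-miR-29d-3p and bta-miR-29e have 1 entry each. A read of bta-miR-29b was therefore listed under both entries, and its level cannot be divided between the clusters. Members of the family have similar sequences, and reads could have been counted on a paralogue, so the level of a single low member is uncertain.

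bta-miR-29a made up nearly all of the family in every heifer. It was measured at 4218 ± 981 CPM over the FH heifers and 4684 ± 604 CPM over the SFH heifers (± SD, 7 heifers each), and ranked 43 of the 341 miRNAs by mean CPM. Within FH the lowest value was 2622 CPM (heifer 25), the median was 4119 CPM and the highest was 5904 CPM (heifer 22). In SFH the lowest was 3668 CPM (heifer 23), the median 4594 CPM and the highest 5442 CPM (heifer 28). The SFH range thus lay inside the FH range. bta-miR-29a varied little between heifers, with a coefficient of variation of 18.4% over the 14 heifers, and 16 of the 341 miRNAs varied less. The median coefficient was 55.4% over all 341 miRNAs and 34.3% over the 181 miRNAs with a mean of at least 50 CPM.

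bta-miR-29b, the member with hairpins in separate clusters, was measured at 145 ± 64.7 CPM over the FH heifers and 155 ± 68.9 CPM over the SFH heifers (± SD, 7 heifers each). FH heifers ranged from 75.4 CPM (heifer 25) through a median of 135 CPM to 282 CPM (heifer 22), and SFH heifers from 92.7 CPM (heifer 30) through a median of 127 CPM to 295 CPM (heifer 28). Apart from heifers 22 and 28, no heifer exceeded 184 CPM, and the groups overlapped over nearly the whole range. The coefficient of variation was 42.9% over the 14 heifers.

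bta-miR-29c was measured at 99.3 ± 35.0 CPM over the FH heifers and 105 ± 22.6 CPM over the SFH heifers (± SD, 7 heifers each). Its FH values ran from 47.0 CPM (heifer 20) to 161 CPM (heifer 22) with a median of 101 CPM. Its SFH values ran from 71.3 CPM (heifer 17) to 127 CPM (heifer 28) with a median of 116 CPM. As for bta-miR-29a, every SFH heifer lay within the FH range. Heifer 22 was the highest FH heifer and heifer 28 the highest SFH heifer for bta-miR-29a, bta-miR-29b and bta-miR-29c alike.

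bta-miR-29d-3p was rare and differed between heifers more than any other member that passed the filter. It had 1 to 63 counts per heifer and a mean of 3.82 ± 6.74 CPM over FH and 9.25 ± 7.35 CPM over SFH heifers (± SD, 7 heifers each). In FH, 5 heifers had at most 3 counts, with 1.33 CPM in heifer 20, 1.64 CPM in heifer 22, 0.570 CPM in heifer 24, 0.634 CPM in heifer 25 and 0.666 CPM in heifer 29, while heifer 27 had 2.93 CPM and heifer 31 had 19.0 CPM. In SFH, heifers 23 and 32 had 2 counts each, at 0.646 and 1.09 CPM, heifer 30 had 4.04 CPM, heifer 26 had 9.99 CPM, heifers 17 and 21 had 15.4 CPM each and heifer 28 had 18.2 CPM. High and low heifers were thus found in both groups, with the only FH value above 3 CPM in heifer 31.

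The counting intervals of bta-miR-29d-3p in its high and low heifers did not all overlap. The exact 95% Poisson interval was 14.6 to 24.3 CPM in heifer 31 (63 counts) and 10.4 to 22.0 CPM in heifer 17 (30 counts). In heifer 25 (3 counts) the interval was 0.131 to 1.85 CPM, and in heifer 23 (2 counts) it was 0.0783 to 2.33 CPM. Heifers 27 and 30, with 16 counts each, lay between, at 1.67 to 4.75 CPM and 2.31 to 6.57 CPM. These intervals cover counting error only, and not library preparation or PCR copies.

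**Figure D1:**
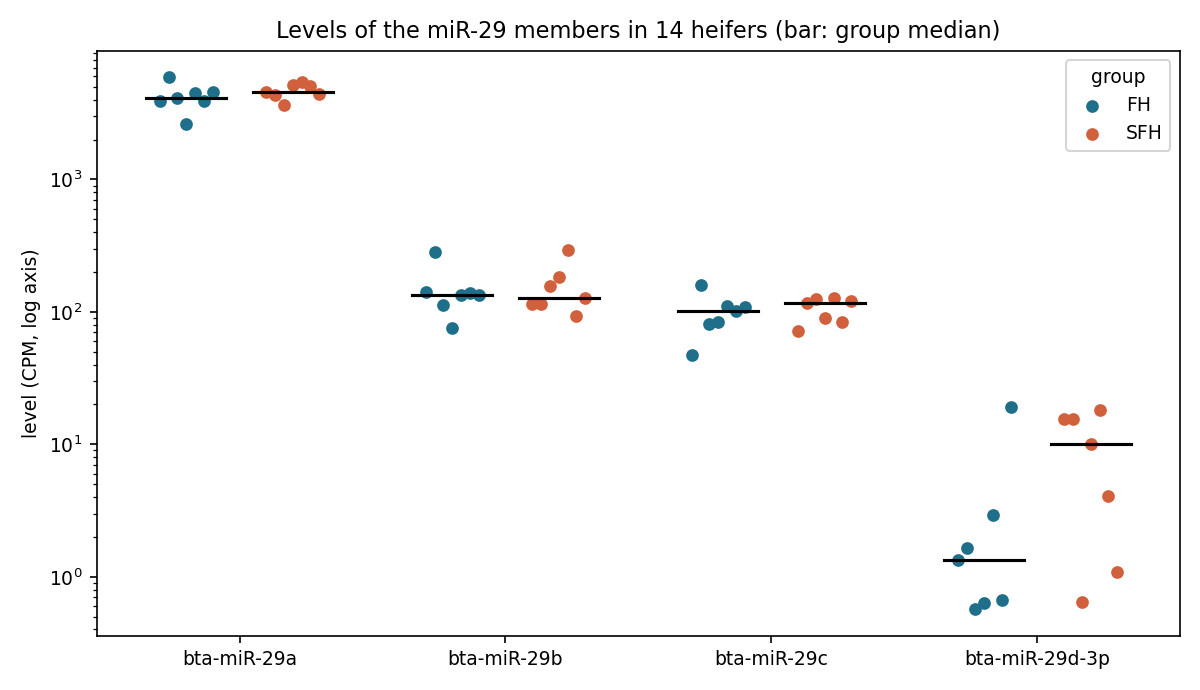
Level in CPM (log axis) of the 4 tested miR-29 members in 7 FH (blue) and 7 SFH (orange) heifers, with 1 point per heifer and a bar at the group median. bta-miR-29a lies between 2622 and 5904 CPM, bta-miR-29b and bta-miR-29c overlap with each other, and bta-miR-29d-3p spreads from 0.570 to 19.0 CPM. bta-miR-29e, with 0 or 1 count per heifer, is not drawn.

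bta-miR-29e was at the limit of detection. It had 1 count in 4 FH heifers and in 3 SFH heifers and none in the other heifers, 7 counts in all. No level was above the limit that a count of 0 allows, so no fold change between groups was computed.

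The miRNAs named for the 2 arms of the 29d hairpin differed in level and in spread. bta-miR-29d-5p has 2 identical entries against 1 for bta-miR-29d-3p, and the entries name no hairpin, so whether the counts of both arms come from the same single hairpin was not tested, and their ratios carry this limit. bta-miR-29d-5p was the more abundant arm in 13 of the 14 heifers, with 52.3 ± 28.7 CPM over FH and 51.9 ± 13.3 CPM over SFH heifers (± SD, 7 heifers each), and with 2174 counts against 265 for bta-miR-29d-3p over all heifers. In FH the 5p arm ranged from 17.8 CPM (heifer 31) through a median of 44.1 CPM to 108 CPM (heifer 22), and in SFH from 40.0 CPM (heifer 26) through 47.2 CPM to 74.1 CPM (heifer 28). The ratio of the 5p to the 3p count was 0.937 in FH heifer 31 and up to 102 in FH heifer 29. In SFH it was lowest in heifer 17, at 2.60, and highest in heifer 23, at 73.0. The ratios of heifers 29 and 23 divide by 3 and 2 counts of bta-miR-29d-3p and are not exact. FH heifer 31 had both the lowest 5p level and the highest 3p level of the 14 heifers. Over the 14 heifers the arms had Pearson's r = −0.38 (permutation test, p = 0.187) and Spearman's rho = −0.28 (permutation test, p = 0.335), with adjusted p-values of 0.643 and 0.823 over the 1354 pairs of a member with any tested miRNA. Without heifers 28 and 31, the farthest from the median of bta-miR-29d-3p, r was −0.37.

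**Figure D2:**
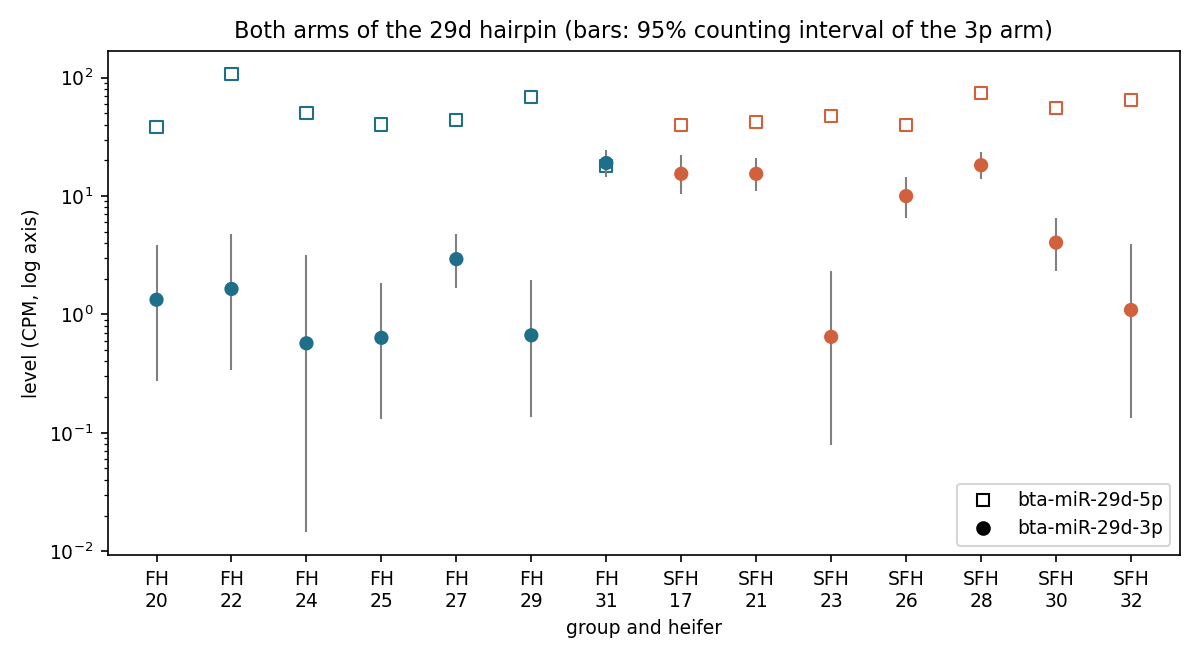
Level in CPM (log axis) of bta-miR-29d-5p (open squares) and bta-miR-29d-3p (filled circles, with exact 95% Poisson intervals) in each FH (blue) and SFH (orange) heifer. The 5p arm stays between 17.8 and 108 CPM while the 3p arm ranges from 0.570 to 19.0 CPM, and the arms meet only in FH heifer 31.

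By mean level the order of the members was bta-miR-29a, bta-miR-29b, bta-miR-29c and bta-miR-29d-3p, with bta-miR-29e at the limit of detection. Mature miRNAs have about the same length and give 1 read each, so CPM were compared between members directly, although the ligation step of library preparation can favour some sequences. bta-miR-29a exceeded bta-miR-29b in 14 of 14 heifers, by 18.4-fold in SFH heifer 28 to 55.2-fold in SFH heifer 30 (median 33.8-fold). Within heifers the log2 difference was 4.96 ± 0.41 (SD, n = 14 heifers; exact two-sided sign permutation test, p = 0.000122, the smallest this test can give). bta-miR-29b and bta-miR-29c were the closest neighbours. bta-miR-29b was higher in 12 of 14 heifers with a log2 difference of 0.51 ± 0.50 (SD, n = 14 heifers; exact two-sided sign permutation test, p = 0.000977). With the 2 identical entries of bta-miR-29b summed, which counts each of its reads under both entries, this difference was 1.51. Their ratio was 3 in FH heifer 20 and 0.892 in FH heifer 25, and 0.984 in SFH heifer 21, so the order of this pair did not hold in every heifer. bta-miR-29c exceeded bta-miR-29d-3p in 14 of 14 heifers, by 4.63-fold in SFH heifer 17 to 195-fold in SFH heifer 23. The upper value rests on 2 counts of bta-miR-29d-3p in heifer 23 and is not an exact fold. For bta-miR-29d-3p against bta-miR-29e no test is given, since both had at most 3 counts in 7 of the 14 heifers.

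As a share of the family's 197860 counts, the mix was led by bta-miR-29a in both groups. bta-miR-29a made up 94.5 ± 0.86% of it over FH heifers and 94.5 ± 1.47% over SFH heifers (± SD, 7 heifers each). Its lowest share was 92.5% in SFH heifer 28 (95% Wilson interval 92.1 to 92.9%) and its highest 96.6% in SFH heifer 30 (96.3 to 96.8%). Like the Poisson intervals, the Wilson intervals cover counting error only, since PCR copies are not independent molecules. bta-miR-29b made up 3.17 ± 0.652% over FH and 3.10 ± 1.11% over SFH heifers, and bta-miR-29c 2.23 ± 0.593% and 2.17 ± 0.631% (± SD, 7 heifers each). bta-miR-29d-3p was at most 0.394% of the family, in FH heifer 31 (95% Wilson interval 0.308 to 0.504%). SFH heifers 28 and 30 had similar bta-miR-29a levels of 5442 and 5115 CPM, while the other members that passed the filter were all higher in heifer 28. bta-miR-29b was 295 CPM in heifer 28 and 92.7 CPM in heifer 30, bta-miR-29c was 127 and 83.9 CPM, and bta-miR-29d-3p was 18.2 and 4.04 CPM.

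The comparison of SFH with FH asks whether the family differed at weaning between heifers of different later pregnancy outcome. None of the 4 tested members passed the thresholds of the study's methods (p-value of at most 0.05 and absolute log2 fold change of at least 0.5) in edgeR's quasi-likelihood test. Of all 341 miRNAs 3.81% passed, 1.47% higher and 2.35% lower in SFH. None of the members reached an unadjusted p of 0.05 either, which 20 of the 341 miRNAs (5.87%) did in edgeR and 6.16% did by exact permutation. After Benjamini-Hochberg adjustment none of the 341 miRNAs passed in edgeR, while DESeq2 gave 2 adjusted calls, none of them a member. The median log2 fold change was 0.06 over the 4 members and 0.06 over all 341 miRNAs.

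The abundant members differed by less than the spread between heifers. The log2 fold change of bta-miR-29a was 0.09 (standard error 0.17, 95% interval −0.26 to 0.44). edgeR's Benjamini-Hochberg adjusted p-value was 0.977, and exact permutation over the 3432 arrangements of the heifers gave a two-sided p of 0.516. For bta-miR-29b the log2 fold change was 0.04 (standard error 0.32, 95% interval −0.63 to 0.70; two-sided exact permutation of the group labels, p = 0.939). bta-miR-29c had a log2 fold change of 0.01 (standard error 0.32, 95% interval −0.65 to 0.67; two-sided exact permutation of the group labels, p = 0.809). The direction for bta-miR-29c turned with the scaling, to −0.01 with relative log expression size factors, and for bta-miR-29b it turned when single heifers were left out. A change of 0.5 on the log2 scale lies outside the interval of bta-miR-29a and inside those of bta-miR-29b and bta-miR-29c. For the 5p arm, bta-miR-29d-5p, the fitted change was −0.09 on the log2 scale (standard error 0.43), and turned to 0.15 with limma-voom.

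bta-miR-29d-3p had the largest fold change of the tested members, 1.26 on the log2 scale (standard error 1.10, 95% interval −1.02 to 3.54), which did not pass. Its unadjusted p-value in edgeR was 0.264, its Benjamini-Hochberg adjusted p-value was 0.947, and exact permutation gave a two-sided p of 0.127. This value depended on FH heifer 31. Without it the remaining 6 FH heifers averaged 1.29 ± 0.910 CPM, none above 2.93 CPM. The log2 fold change was then 2.73 (standard error 1.13), with an unadjusted p-value of 0.0257 and a Benjamini-Hochberg adjusted p-value of 0.764 in edgeR, and a two-sided p of 0.0315 by exact permutation (6 FH and 7 SFH heifers). No source gives a reason to leave heifer 31 out, and the comparison with all heifers stands as the result.

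**Figure D3:**
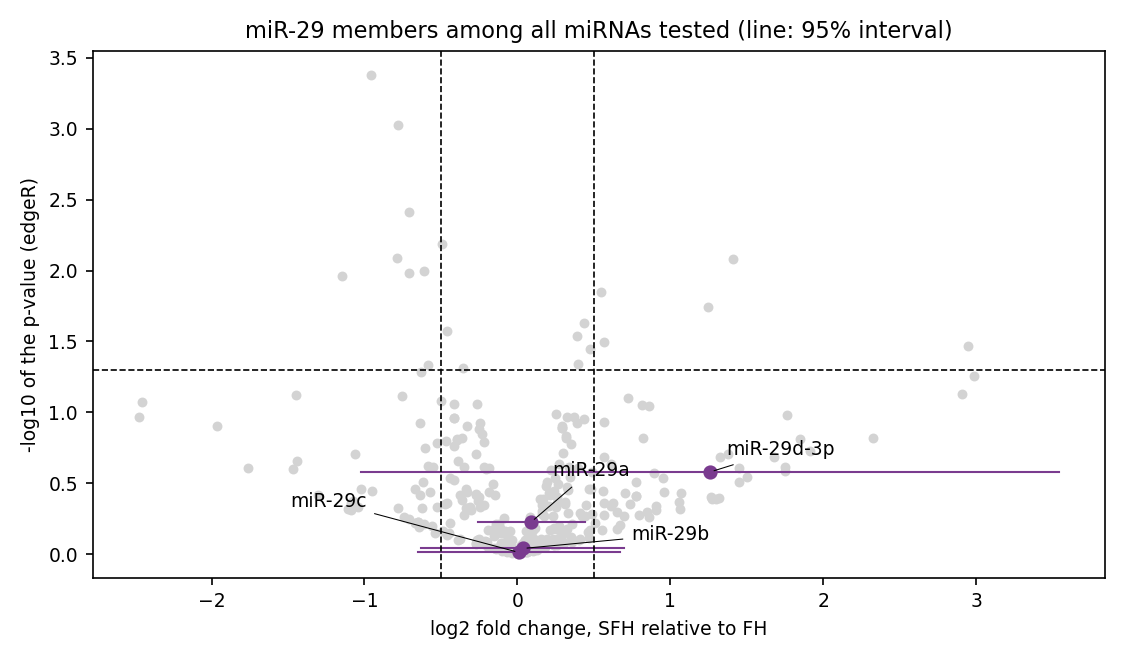
The −log10 of edgeR's p-value against the log2 fold change (SFH relative to FH) of 341 miRNAs, with the thresholds dashed and the 4 miR-29 members in purple with 95% intervals. bta-miR-29a, bta-miR-29b and bta-miR-29c sit at 0.09, 0.04 and 0.01, and bta-miR-29d-3p at 1.26 with an interval that runs from −1.02 to 3.54.

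Paralogue co-variation was measured on log2(TMM-normalized CPM + 0.5) over the 14 heifers, where TMM scales the libraries to each other. Pearson's r was above 0 for all 6 pairs of members, and none passed after Benjamini-Hochberg adjustment over the 1354 pairs of a member with any tested miRNA. Of the 1348 pairs with miRNAs outside the family, 0.519% passed and 682 had an r above 0. Unadjusted, 1 of the 6 pairs of members had a p of r of at most 0.05, against 10.5% of the pairs with outside miRNAs. By rho 3 of the 6 pairs did, against 122 of the 1348 outside pairs. The median r was 0.42 over the pairs of members and 0.00 over the outside pairs. The highest r was between bta-miR-29a and bta-miR-29b, which share a cluster through *MIR29B-1*, with r = 0.66 (permutation test, p = 0.00975, adjusted 0.269) and Spearman's rho = 0.59 (permutation test, p = 0.0303, adjusted 0.458). Without heifers 22 and 25, the farthest from the median of bta-miR-29a, r was 0.40. It was 0.59 without heifer 22 alone, 0.55 without heifer 25 alone and 0.80 without heifer 30 alone. Within FH it had r = 0.91 (exact permutation p = 0.0111, adjusted 0.489) and within SFH r = 0.36 (exact permutation p = 0.435, adjusted 0.934). The difference between the groups in r was not tested.

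bta-miR-29b and bta-miR-29c, which share a cluster through *MIR29B-2*, had r = 0.50 (permutation test, p = 0.0692, adjusted 0.498) and rho = 0.69 (permutation test, p = 0.00769, adjusted 0.409). Their r was 0.52 within FH and 0.52 within SFH (exact permutation p = 0.216 and 0.246, n = 7 each), and 0.22 without heifers 22 and 28. For bta-miR-29a and bta-miR-29c, in different clusters, r was 0.36 (permutation test, p = 0.202, adjusted 0.667) and rho was 0.50 (permutation test, p = 0.0700, adjusted 0.558). r was then 0.57 within FH and −0.19 within SFH (exact permutation p = 0.182 and 0.679, n = 7 each), and 0.25 without heifers 22 and 25. bta-miR-29d-3p, also in a different cluster from bta-miR-29a, had r = 0.47 with it (permutation test, p = 0.0860, adjusted 0.520). Their rho was 0.56 (permutation test, p = 0.0420, adjusted 0.508), and r was 0.55 without heifers 22 and 25. bta-miR-29d-3p and bta-miR-29a had r = 0.28 in FH and 0.67 in SFH (exact permutation p = 0.457 and 0.104, n = 7 each). With bta-miR-29b, bta-miR-29d-3p had r = 0.19 and rho = 0.16, and with bta-miR-29c r = 0.04 and rho = 0.09 (permutation test, p = 0.508, 0.592, 0.886 and 0.751, adjusted 0.850, 0.925, 0.962 and 0.952, in the same order). Without the 2 farthest heifers r was 0.06 and 0.08. The order of the pairs of members by r was not their order by rho, and the part of shared clusters was not tested.

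**Figure D4:**
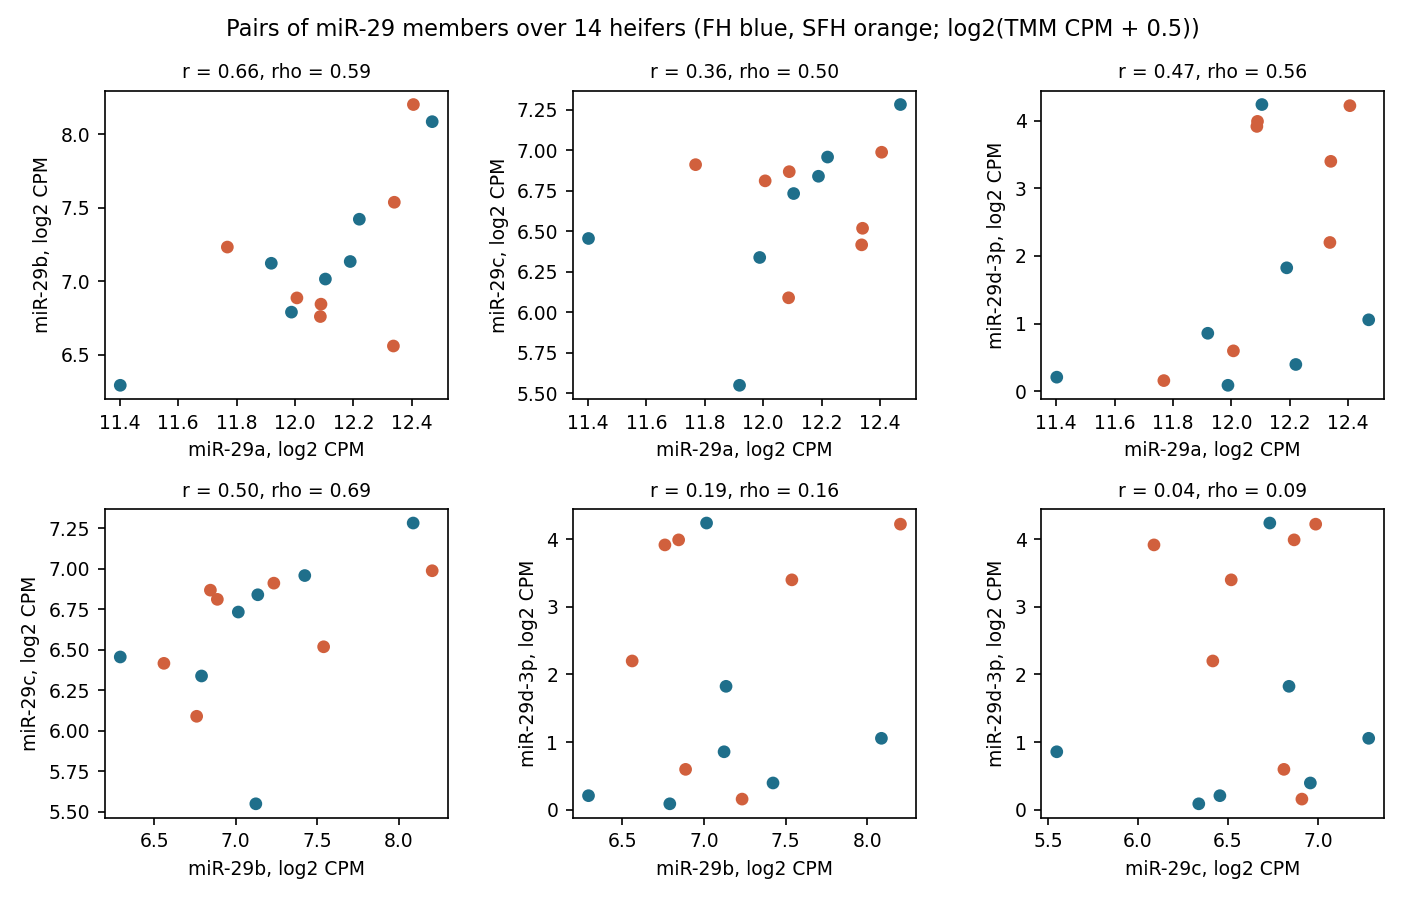
Each panel plots 1 pair of miR-29 members as log2(TMM-normalized CPM + 0.5) over 14 heifers (FH blue, SFH orange). r falls from 0.66 for bta-miR-29a with bta-miR-29b to 0.04 for bta-miR-29c with bta-miR-29d-3p, and no pair passed after adjustment.

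No relation of a member with sequencing depth passed the test. The correlation with the log2 total count was r = −0.15 for bta-miR-29a, −0.16 for bta-miR-29b, 0.19 for bta-miR-29c and −0.01 for bta-miR-29d-3p (permutation test, p = 0.616, 0.580, 0.519 and 0.974). Spearman's rho was 0.01, −0.07, 0.17 and 0.09 in the same order (permutation test, p = 0.988, 0.821, 0.563 and 0.763). These 4 values were not adjusted, since none had a p-value of at most 0.05.

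bta-miR-29a had 6 correlations with miRNAs outside the family that passed adjustment. They were picked from 337 pairs by the test of r itself, so their r cannot be compared with that of the paralogues. Over all 337 pairs the 5th and 95th percentiles of r were −0.65 and 0.68, and r with bta-miR-29b was 0.66. The highest r was found for bta-miR-363, a member of the miR-106a cluster with the miR-92 seed, at 0.91 (permutation test, p = 6e-05, adjusted 0.0338), with rho = 0.77. bta-miR-192 had r = 0.89 and bta-miR-194 had r = 0.87, with rho of 0.77 and 0.83 (permutation test of r, p = 0.00012 and 0.00013, adjusted 0.0338 for each). miR-192 and miR-194 are processed from shared transcripts, so they are not separate observations. bta-miR-142-5p, from a hairpin expressed across the blood lineages, had r = 0.85 and rho = 0.73 (permutation test of r, p = 0.00015, adjusted 0.0338). The lowest r was found for bta-miR-1307, at −0.85 with rho = −0.87 (permutation test of r, p = 6e-05, adjusted 0.0338). On the deposited CPM this r was −0.68 and did not pass (permutation test, adjusted p = 0.176). bta-miR-222 followed with r = −0.84 and rho = −0.75 (permutation test of r, p = 0.0002, adjusted 0.0387), and was named after its value was seen. With group means removed its r was −0.83 and did not pass (permutation test, adjusted p = 0.0554). These 6 pairs made up 1.78% of the 337 pairs of bta-miR-29a with miRNAs outside the family.

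FH heifer 25, the lowest for bta-miR-29a, was also at or near the end of the range for these miRNAs. bta-miR-363 ranged from 214 CPM in FH heifer 25 to 1156 CPM in FH heifer 22, with a median of 715 CPM. bta-miR-192 ranged from 220 CPM in the same heifer 25 to 729 CPM in SFH heifer 30, and bta-miR-194 from 186 CPM in heifer 25 to 595 CPM in FH heifer 27. In the opposite direction, bta-miR-222, known for repressing the cell cycle inhibitor CDKN1B, was highest in FH heifer 25 at 4307 CPM and lowest in SFH heifer 28 at 1836 CPM. bta-miR-1307 ranged from 261 CPM in FH heifer 29 to 1001 CPM in SFH heifer 23, with heifer 25 next to the top at 939 CPM. Heifer 25 thus had the lowest bta-miR-29a, bta-miR-363, bta-miR-192, bta-miR-194 and bta-miR-142-5p of the 14 heifers.

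The same directions were present in each group. However, the pairs of bta-miR-29a that passed adjustment had been picked by r over these same heifers, with both groups pooled. Their r within a group is therefore not a separate test, and the p-values within a group do not account for this selection. Within FH, r with bta-miR-29a was 0.91 for bta-miR-363, 0.92 for bta-miR-192, 0.87 for bta-miR-194, 0.93 for bta-miR-142-5p, −0.90 for bta-miR-1307 and −0.77 for bta-miR-222 (exact permutation p = 0.0157, 0.00774, 0.0101, 0.00893, 0.00159 and 0.0395, n = 7). Within SFH the values were 0.96, 0.81, 0.90, 0.80, −0.88 and −0.95 in the same order (exact permutation p = 0.00615, 0.0248, 0.000794, 0.0341, 0.00952 and 0.00238, n = 7). None passed adjustment within a group. Without heifers 22 and 25, r over the other 12 heifers was 0.78, 0.73, 0.78, 0.73, −0.82 and −0.73, and no pair passed. With Spearman's rho the smallest adjusted p over the 1354 pairs was 0.190, and no pair passed. Of the 7 pairs that passed over the 4 members, 0 did when heifer 22, 25, 23 or 26 was left out, 3 when heifer 24, 28 or 32 was, 4 when heifer 20, 27 or 30 was, and 5 when heifer 21 was, while r of each pair kept its sign. Without heifer 22, 23 or 26, r with bta-miR-29a stayed between 0.83 and 0.91 or between −0.84 and −0.82. Without heifer 25 it was 0.82, 0.77, 0.73, 0.75, −0.83 and −0.73, in the same order as within the groups.

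**Figure D5:**
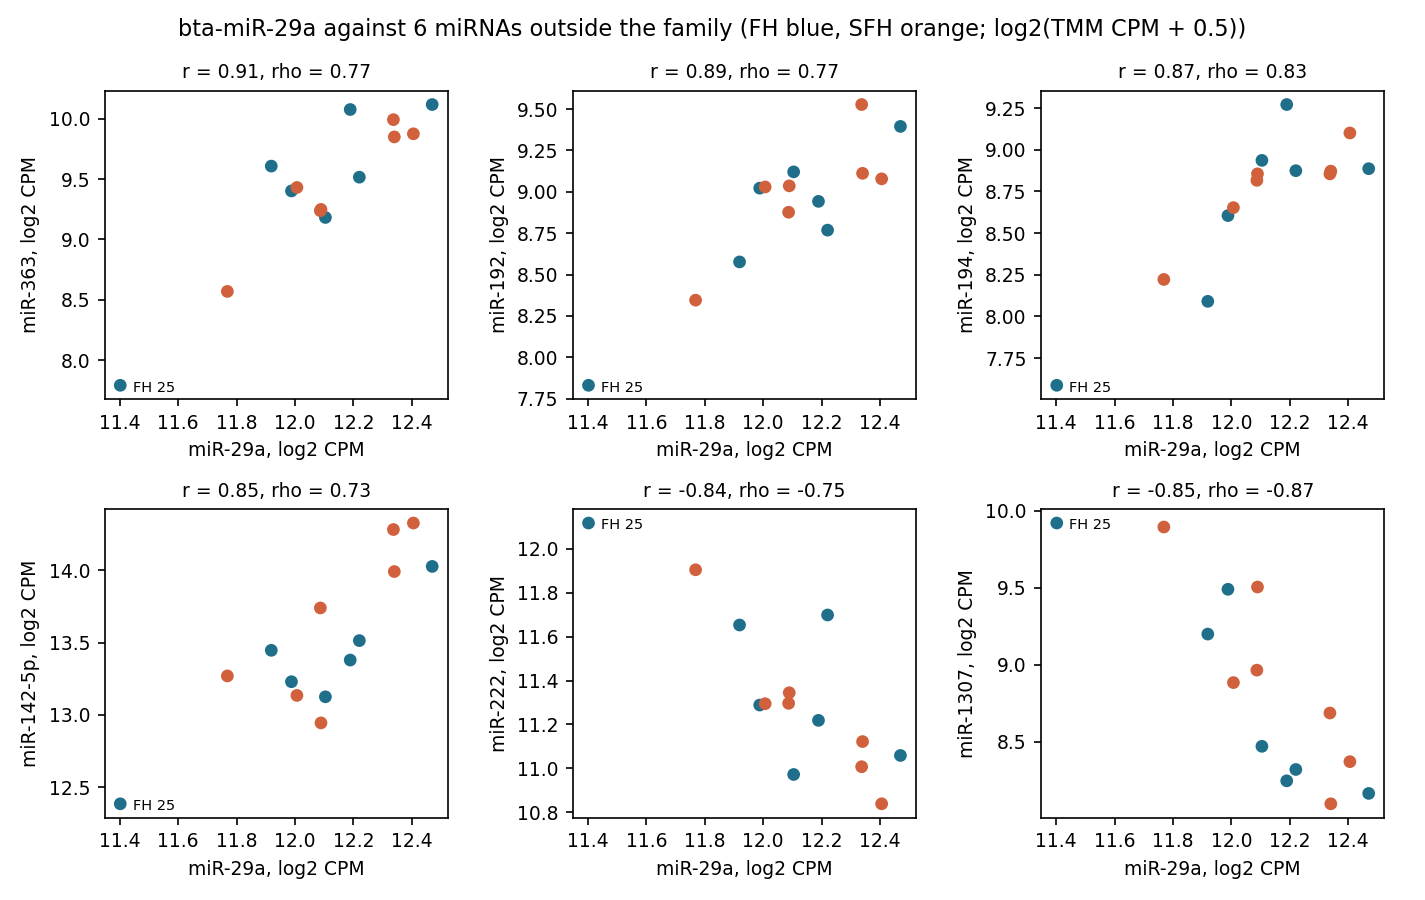
Each panel plots bta-miR-29a against 1 of the 6 miRNAs outside the family whose r passed the adjusted threshold of 0.05, as log2(TMM-normalized CPM + 0.5) over 14 heifers (FH blue, SFH orange). FH heifer 25, labelled, lies at the low end of bta-miR-29a in every panel, and r runs from 0.91 for bta-miR-363 to −0.85 for bta-miR-1307.

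For bta-miR-29b the miRNAs with the highest r were bta-let-7a-3p (0.74), bta-miR-9-5p (0.71) and bta-let-7g (0.67), with rho of 0.60, 0.54 and 0.64 (permutation test of r, adjusted p = 0.155, 0.209 and 0.263). The lowest was bta-miR-11992, with r = −0.82 and rho = −0.81 (permutation test of r, p = 8e-05, adjusted 0.0338). This call was lost with a pseudocount of 5 (r = −0.78), with linear CPM (−0.64) and with the deposited CPM (−0.77), at adjusted p-values of 0.0989, 0.353 and 0.053 (permutation test). bta-miR-11992 was near the limit of detection, from no count to 15.2 CPM with a median of 3.16 CPM. The nearest to bta-miR-29c were bta-miR-3613a (r = 0.77), bta-miR-374a (0.70) and bta-miR-2285aj-5p (0.68), and the lowest was bta-miR-2415-3p (−0.75), with rho of 0.51, 0.58, 0.19 and −0.81 (permutation test of r, adjusted p = 0.209, 0.209, 0.385 and 0.108). Without heifers 17 and 20, r with bta-miR-2285aj-5p was −0.01. bta-miR-29d-3p was nearest to bta-miR-1839 (r = 0.74), bta-miR-186 (0.66) and bta-miR-2285aa (0.66), and lowest with bta-miR-222 (−0.65), with rho of 0.63, 0.63, 0.68 and −0.64 (permutation test of r, adjusted p = 0.209, 0.272, 0.272 and 0.272). No miRNA was among the 3 nearest of more than 1 member.

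The tissue label was checked against miRNAs that mark cell types. The lymphocyte miRNA bta-miR-150 averaged 65424 CPM, the myeloid bta-miR-223 18363 CPM and the blood lineage bta-miR-142-5p 12265 CPM. The erythroid bta-miR-451 averaged 1905 CPM, while bta-miR-144, from the same hairpin cluster, had no count. Liver bta-miR-122 averaged 0.848 CPM, and the epithelial bta-miR-200a, bta-miR-200b and bta-miR-205 averaged 0.0268, 0.589 and 0.0697 CPM. Other miRNAs of these lists were not near 0. Epithelial bta-miR-200c averaged 174 CPM and stromal bta-miR-143 218 CPM, both above bta-miR-29b and bta-miR-29c. The summed epithelial level was 55.9 to 249 CPM and the summed stromal level 145 to 558 CPM per heifer, and their part in the miR-29 levels was not tested. Of the 4 lymphocyte and the 5 granulocyte and monocyte miRNAs, all tested, none passed the thresholds between the groups. Their median log2 fold changes were −0.11 and 0.22. None of the tested erythroid (2), platelet and endothelial (2), stromal (3), muscle (1) and epithelial (1) miRNAs passed either. Muscle miRNAs stood out in SFH heifer 21, with a sum of 275 CPM, where bta-miR-29a was 4363 CPM and near the middle of its range. In this heifer bta-miR-29d-3p was high, at 15.4 CPM against a median of 2.28 CPM over the 14 heifers. FH heifer 31, SFH heifer 28 and SFH heifer 17, also high for bta-miR-29d-3p, had muscle sums of 0, 0.65 and 6.67 CPM. FH heifer 20, with the next highest muscle sum of 85.6 CPM, had 1.33 CPM of bta-miR-29d-3p. The part of muscle miRNAs in the miR-29 levels was not tested. The highest summed stromal level, 558 CPM, was also in heifer 21.

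Of the blood cell miRNAs, bta-miR-142-5p alone had an r with bta-miR-29a that passed adjustment. With the lymphocyte miRNAs r was 0.30 for bta-miR-150, 0.16 for bta-miR-342, −0.10 for bta-miR-181a and 0.57 for bta-miR-155. The list of granulocyte and monocyte miRNAs includes bta-miR-142-5p and bta-miR-142-3p, although their hairpin is expressed across the blood lineages. For this list r was −0.02 for bta-miR-223, 0.85 for bta-miR-142-5p, 0.71 for bta-miR-142-3p, 0.75 for bta-miR-146a and 0.51 for bta-miR-146b. The summed level of the 5 granulocyte and monocyte miRNAs ranged from 22519 CPM in FH heifer 31 to 45880 CPM in SFH heifer 30, with 28060 ± 5808 CPM over FH and 35876 ± 7740 CPM over SFH heifers (± SD, 7 heifers each). The most abundant of the list was bta-miR-223. The part of cell composition in the level of bta-miR-29a was not tested. For bta-miR-29b, bta-miR-29c and bta-miR-29d-3p no marker miRNA passed adjustment, with r between −0.63 and 0.65 over all markers tested.

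Among 7 miRNAs known for leukocyte activation (bta-miR-21-5p, bta-miR-155, bta-miR-146a, bta-miR-150, bta-miR-181a, bta-miR-17-5p and bta-miR-92a), all were tested and none passed the thresholds between SFH and FH. Their median log2 fold change was 0.16, against 0.06 over all 341 miRNAs. bta-miR-17-5p missed the thresholds by its log2 fold change of 0.43 alone, with an unadjusted p-value of 0.0233 in edgeR (Benjamini-Hochberg adjusted 0.661). bta-miR-92a and bta-miR-17-5p, which belong to the proliferation-linked miR-17 cluster, had r = −0.60 and −0.30 with bta-miR-29a, and neither passed adjustment.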

How the data were processed

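Small RNA libraries of PWBC from 14 heifers (7 FH, 7 SFH) were prepared with a NEXTflex kit. The authors trimmed the adapter and 4 bases from each end with Cutadapt, aligned the reads with miRDeep2 to ARS-UCD1.2 and to the bovine miRNAs of miRBase, and deposited raw counts, without normalization. They also deposited CPM of 341 miRNAs, which equal the counts divided by the total over these miRNAs in each heifer. The CPM of single heifers are on this scale.

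Where a mature miRNA had several entries, the one with the highest total was kept. Counts of the 341 miRNAs were fitted with edgeR 4.0.16 (TMM, quasi-likelihood test, group as the only term). Standard errors were derived from the F statistic of each fold change. Exact permutation tests ran over all 3432 arrangements, and correlations over 14 heifers used 100000 permutations. DESeq2 1.42.0 and limma 3.58.1 were alternatives. The tests were tested on simulated data, where the size of known changes was recovered and part of them were not called.

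The miRNAs named are the members, bta-miR-29d-5p, the 3 miRNAs with the highest and the 1 with the lowest r for each tested member, and marker miRNAs. Members and lists were chosen with earlier results of these data known. The check for duplicate libraries found 0 pairs of heifers with identical counts.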

Additional observations from a re-analysis of the deposited data

Results flagged for a closer look

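In 12 sets of 7 heifers (4 members, bta-miR-29d-5p and the family sum, in each group), the highest and lowest values were compared with the rest by Dixon's ratio, and 2 stood apart. The usual rate of about 1 in 20 by chance holds for normally distributed values. It may not hold for these CPM, and the sets are not independent, since the family sum includes bta-miR-29a. bta-miR-29b had 282 CPM in FH heifer 22, with the nearest FH heifer at 141 CPM. bta-miR-29d-3p had 19.0 CPM in FH heifer 31, with the nearest FH heifer at 2.93 CPM.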

How the results depend on the processing

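No paired analysis was possible because the heifer numbers are different in the groups. The number of members past the thresholds was 0 under all 12 alternatives that kept every heifer, of which the 2 stricter filters (at least 1 CPM in all heifers, at least 10 counts in every heifer) removed bta-miR-29d-3p before testing, and 0 to 1 with each heifer left out, where the 1 was bta-miR-29d-3p without FH heifer 31. The number of miRNAs past the thresholds, 13 of 341 in the edgeR fit with all heifers, was 23 of 341 with limma-voom. It was 126 of 614 without a CPM filter, where rare miRNAs enter, and 20 of 434 entries with every precursor entry kept. With each heifer left out it was 11 to 22 of 341 (22 without FH heifer 24 and 20 without SFH heifer 26). The log2 fold change of bta-miR-29c was −0.01 with relative log expression size factors, with DESeq2 and without a CPM filter, −0.03 with a CPM of at least 1 in all heifers, −0.02 with at least 10 counts in every heifer and −0.05 with every precursor entry kept, where bta-miR-29b was at −0.01. bta-miR-29d-5p was at 0.15 with limma-voom. With each heifer left out, the ranges were 0.00 to 0.17 for bta-miR-29a, −0.21 to 0.25 for bta-miR-29b, −0.11 to 0.14 for bta-miR-29c, 1.00 to 2.73 for bta-miR-29d-3p and −0.25 to 0.15 for bta-miR-29d-5p. The order of mean levels was kept under the 3 alternatives tried. The log2 difference of bta-miR-29b and bta-miR-29c was 0.49 with a pseudocount of 5 and 0.51 with the deposited CPM. With precursor entries summed it was 1.51, but this counts each bta-miR-29b read under both entries and so cannot test the order of this pair. No pair of members passed adjustment under any alternative, and r ranged from −0.13 to 0.18 for bta-miR-29c with bta-miR-29d-3p and from −0.04 to 0.32 for bta-miR-29b with bta-miR-29d-3p when a heifer was left out. The 7 pairs with miRNAs outside the family became 0 with Spearman's rho, with linear CPM and without the 2 farthest heifers, 10 with the deposited CPM (5 of them shared with the 7), and 0 to 9 with each heifer left out. The cause was not tested. Low counts limit bta-miR-29d-3p, with 1 to 3 counts in 7 heifers, and bta-miR-29e.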
